A study of Homo sapiens with 19 samples.

Results

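The 7 genes described here encode 2 synucleins and 5 proteins whose genes have been linked to inherited Parkinson disease: SNCB, SNCG, PARK7, PINK1, LRRK2, UCHL1 and VPS35. They were chosen by name and not by a rule on any measured value, but with earlier results of these data known. They were found by Ensembl gene ID among the 19942 rows of the gene tables and as 67 of the 256980 entries of the transcript table. The data came from SH-SY5Y, an established human neuroblastoma line with a noradrenergic neuronal character, and were collected to find the RNAs that the stress granule (SG) proteins G3BP1 and G3BP2 bind and the RNAs that enter SGs under oxidative stress by sodium arsenite (AS). Enhanced crosslinking and immunoprecipitation (eCLIP), in which UV light joins RNA to the proteins it touches before the protein is pulled down, was done for each protein without and with AS, giving 4 groups of 2 libraries. RNA-seq had 1 library in each condition.

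In the knockdown arm, cells received a control siRNA (siCtrl) or an siRNA against G3BP1 (siG3BP1) or G3BP2 (siG3BP2), and poly-A RNA was sequenced. In the SG arm, AS-treated cells were lysed and cleared of debris by slow centrifugation. A portion of that lysate is called Total, and the cores pulled out of the remainder with an antibody to G3BP1 are called SG. A further pair of libraries, depleted of rRNA, came from untreated and AS-treated cells. For AS the methods give 500 μM for 1 h, as does the label of the rRNA-depleted AS library. The label of the untreated rRNA-depleted library gives no dose. All remaining labels, those of siRNA-treated and untreated eCLIP samples included, give a dose of 50 mM for 1 h. The treatment of each library is taken here from its title. Nothing in the labels says that the eCLIP duplicates came from separate cultures, so p-values measure only the spread between these libraries.

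Synucleins are small proteins of presynaptic terminals. SNCB encodes β-synuclein and SNCG encodes γ-synuclein. PINK1 is a kinase that builds up on damaged mitochondria and marks them for removal, and PARK7 encodes DJ-1, a protein that senses oxidation. LRRK2 is a large kinase that phosphorylates Rab GTPases, VPS35 is the core subunit of retromer, which returns cargo from endosomes, and UCHL1 is a ubiquitin hydrolase that neurons make in large amounts. SGs are cytoplasmic assemblies of RNA and protein that form when translation stops, and G3BP1 and G3BP2 are their scaffold proteins.

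The 7 genes lie on 6 chromosomes of GRCh38. SNCB (ENSG00000074317) is at chr5:176620082-176630556 on the minus strand, and SNCG (ENSG00000173267) at chr10:86958599-86963258 on the plus strand. PARK7 (ENSG00000116288) is at chr1:7954291-7985505 and PINK1 (ENSG00000158828) at chr1:20633458-20651511, both on the plus strand. LRRK2 (ENSG00000188906) spans chr12:40196744-40369285 on the plus strand, UCHL1 (ENSG00000154277) chr4:41256413-41268455 on the plus strand and VPS35 (ENSG00000069329) chr16:46656132-46689518 on the minus strand. Their canonical transcripts run from short to very long. Those of SNCG, UCHL1, PARK7 and SNCB measure 756, 1103, 1127 and 1398 nt, that of PINK1 2657 nt, that of VPS35 6776 nt and that of LRRK2 9239 nt. The VPS35 transcript is mostly 3′UTR, at 4340 nt, whereas that of LRRK2 is mostly coding sequence, at 7584 nt. GC content was 65.6% for SNCB and 38.9% for LRRK2, with the other 5 transcripts in between. The whole of SNCG, 4660 bp, lies inside MMRN2 on the opposite strand, and PINK1-AS overlaps 8855 bp of PINK1 on the opposite strand. LRRK2 shares 28172 bp with LRRK2-DT on the opposite strand and 14676 bp with LINC02471 on the same strand. Whether the counting used strand is not given in the sources used here, so reads of these genes and of their overlapping partners cannot be told apart.

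The palindromic motif that the study drew from its eCLIP peaks was searched for as CCAG, then C or G, then CTGG, 9 letters in all. The 2 forms are reverse complements of each other, so the search reads both strands at once. Of 20046 protein-coding genes, 28.0% hold it in the canonical transcript. The 7 genes hold 115 matches, of which 108 are in introns, 5 in exons of other transcripts and 2 in a canonical transcript. PARK7 holds 35 of them, LRRK2 32, PINK1 19, VPS35 19, SNCB 5 and UCHL1 5, and SNCG holds none. The one in the canonical transcript of PINK1 is shown because the mature mRNA would carry it, with the match in capitals and 8 bases on each side.
PINK1, coding sequence, chr1:20633676-20633700, plus strand: gggagcgtCCAGGCTGGgccgcagg
Such a match describes the letters only, and the eCLIP values are per gene, without positions.

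The libraries carried the markers of the line. In siCtrl, 8 of 9 noradrenergic neuroblastoma markers were above 1 TPM (an abundance per transcript length, scaled to the same total in every library), among them HAND2, GATA3 and DBH, while TH was at 0.304 TPM. Of 6 markers of other cell types, only COL1A1 was above 1 TPM, at 12.6. G3BP1 was at 32.0% of its siCtrl level in siG3BP1, and G3BP2 at 29.9% in siG3BP2. TPM does not carry the read depth. The numbers behind the eCLIP values summed to between 4268657 and 26179732 per library, larger in every library numbered 1 than in any numbered 2.

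UCHL1 was among the most abundant mRNAs of these cells and SNCG and LRRK2 were near 0. In siCtrl, UCHL1 was at 988 TPM, above 99.6% of the genes, and PARK7 at 199 TPM. PINK1 followed with 28.6 TPM, VPS35 with 18.3 and SNCB with 4.28. SNCG was at 0.0854 TPM and LRRK2 at 0.00629 TPM. The order UCHL1, PARK7, PINK1, VPS35, SNCB was the same in siCtrl, siG3BP1 and siG3BP2, and in Total VPS35 was at 20.2 TPM and PINK1 at 19.6 TPM. With 1 library per condition there is no spread from which to say whether neighbours in this order differ. In RNA from a whole culture, fewer cells that express a gene and less RNA per cell cannot be told apart.

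**Figure D1:**
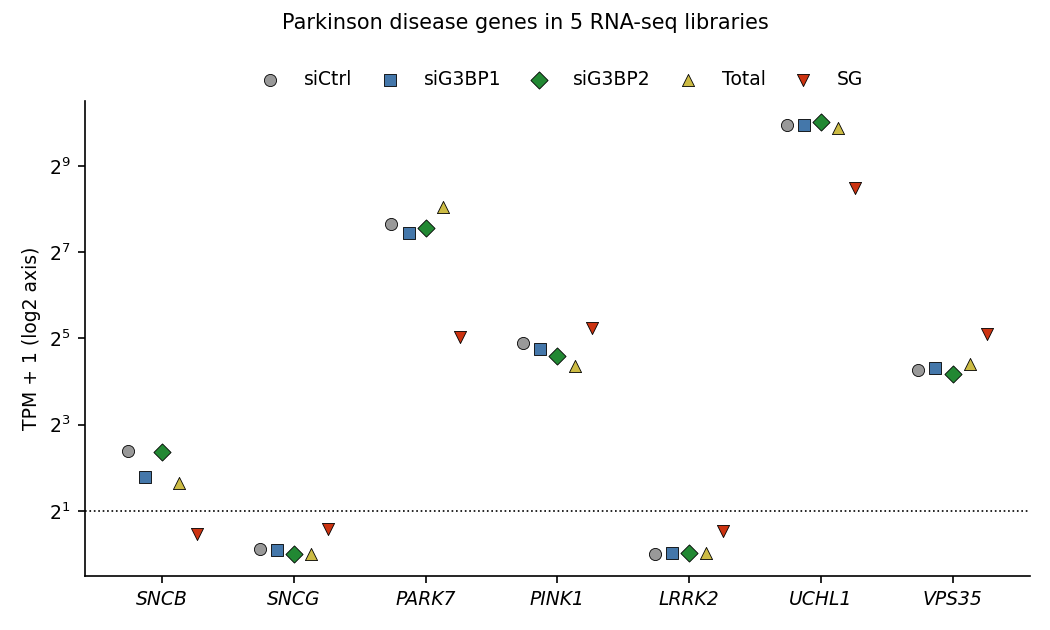
TPM + 1 on a log2 axis for each of the 7 genes in the siCtrl, siG3BP1, siG3BP2, Total and SG libraries, 1 point per library, with a dotted line at 1 TPM. UCHL1 and PARK7 are lower in SG (360 and 31.8 TPM) than in the other 4 libraries, and PINK1 and VPS35 are higher there (37.1 and 33.6 TPM).

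The comparison of SG with Total asks which mRNAs are concentrated in SG cores. Of the 7 mRNAs, 3 short ones (PARK7, UCHL1 and SNCB) were scarcer in the cores than in the lysate, and none of the 7 passed as enriched. The shortest, SNCG, was below 1 TPM in both and could not be called. PARK7 was at 262 TPM in Total and 31.8 TPM in SG, 8.23-fold lower. UCHL1 had 944 TPM in the lysate against 360 TPM in the cores, 2.62-fold lower. SNCB had 2.15 TPM in the lysate against 0.384 TPM in the cores. The study's thresholds, a fold above 2 with SG above 1 TPM or below 0.5 with Total above 1 TPM, were applied here to a fold of TPM + 1, the addition of 1 being a choice made here. By this rule these 3 were depleted, with log2 folds of -3.00 for PARK7, -1.39 for UCHL1 and -1.18 for SNCB. PARK7 lay lower than all but 1.48% of the 13560 genes above 1 TPM in either library. By the same rule 62.9% of those genes were enriched and 9.45% depleted. SNCB is a low mRNA, and its call rests on a pair of small values.

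PINK1 and VPS35 had higher values in the cores without reaching the rule. PINK1 had 19.6 TPM in Total against 37.1 TPM in SG, a log2 fold of 0.89, and VPS35 at 20.2 TPM and 33.6 TPM, a log2 fold of 0.70. The median ratio of SG to Total over the 10958 genes above 1 TPM in both was 2.78, and relative to that median both turned lower, with PINK1 at 0.682 and VPS35 at 0.597 of it. PARK7, UCHL1 and SNCB were at 0.0437, 0.137 and 0.0645 of the median. SNCG was listed at 0 in Total and at 0.50 TPM in SG, and LRRK2 had 0.0138 TPM in the lysate against 0.441 TPM in the cores. Both stayed below 1 TPM in every library, so neither could be called. The antibody used to purify the cores is against G3BP1, as in one of the eCLIP sets, and with 1 library on each side no test was possible.

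Set beside mRNAs of their own length, the genes looked different from one another. The median log2 fold of SG over Total was -0.74 for the 2077 genes with a canonical transcript under 1500 nt, 0.75 for 4058 genes of 1500 to 3000 nt, 2.11 for 4975 genes of 3000 to 6000 nt and 3.38 for 2438 genes of 6000 nt or more. SNCB and UCHL1 were above 38.7% and 34.6% of the genes under 1500 nt, and PINK1 was above 55.1% of the genes in its class, so these 3 were between the quartiles of mRNAs of like length. PARK7 was above only 8.23% of its class. VPS35 was above only 4.02% of the genes of 6000 nt or more, of which 94.1% were enriched. Its transcript is long and its GC content low, at 41.7%, and its log2 fold of 0.70 was near the median of the genes of 1500 to 3000 nt. With 1 library on each side none of these positions has a test.

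**Figure D2:**
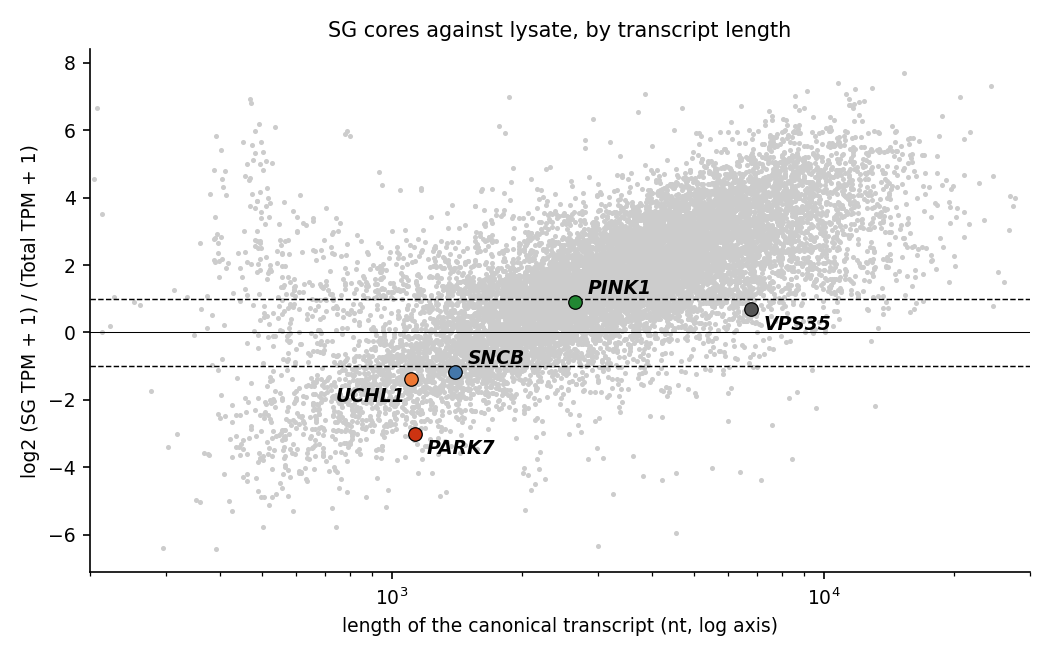
Log2 fold of TPM + 1 in SG over Total (vertical axis) against the length of the canonical transcript in nt (horizontal log axis) for the genes above 1 TPM in either library, in grey, with the 5 of the 7 genes above 1 TPM in colour and dashed lines at the 2-fold rule. PARK7 at 1127 nt is at -3.00 and VPS35 at 6776 nt is at 0.70, below most genes of its length.

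Other genes of the same pathways went both ways. Beside the counts in each list stand the shares of all 13560 genes, 62.9% enriched and 9.45% depleted. The lists were not matched for transcript length, which the fold followed, and no list was tested against these shares. Among 19 other Parkinson disease genes, 12 were enriched and 3 depleted, with a median log2 fold of 1.61 against 1.51 over all genes. The highest was VPS13C, a lipid transport protein at membrane contact sites, at 0.275 TPM in Total and 50.9 TPM in SG. The lowest was CHCHD2, a small mitochondrial protein, at 1182 TPM in Total and 124 TPM in SG. Of 12 presynaptic vesicle and SNARE genes, the setting in which synucleins act, 7 were enriched and none depleted, and their median was 1.15. SYT1, the calcium sensor of vesicle release, was highest, at 0.216 TPM in Total and 122 TPM in SG. Both VPS13C and SYT1 were below 1 TPM in Total, so the size of their folds rests on a small value in 1 library.

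For PINK1, 23 genes of its mitochondrial import and of mitophagy were examined, of which 12 were enriched and 1 depleted, with a median log2 fold of 1.34. The mitofusin MFN1, a target of the pathway, was highest among those above 10 TPM, at 5.21 TPM in Total and 36.9 TPM in SG. The depleted gene was TOMM7, a small subunit of the import channel that stabilises PINK1 on mitochondria, at 218 TPM in Total against 19.9 TPM in SG. For LRRK2, 11 of the 16 measured genes among its paralog, Rab substrates and their effectors were enriched and none was depleted. The median was 2.05. Of all genes, 62.9% were enriched and 9.45% depleted. SPAG9, a motor adaptor that binds phosphorylated Rabs, was at 13.2 TPM in Total and 221 TPM in SG.

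For VPS35, 19 retromer, sorting nexin and WASH genes were examined, of which 10 were enriched and 3 depleted, with a median of 1.30. The shares over all genes were again 62.9% and 9.45%. SNX27, the sorting nexin that brings cargo to retromer, was at 0.783 TPM in Total and 63.3 TPM in SG. VPS29, which binds VPS35 directly within retromer, was lowest, at 41.8 TPM in Total and 7.41 TPM in SG. Of the 7 ubiquitin hydrolase paralogs of UCHL1 and ubiquitin genes, 5 were depleted and 1 was enriched, with a median of -2.03. The lowest was RPS27A, a ubiquitin and ribosomal protein fusion, at 802 TPM in Total against 55.6 TPM in SG, and the enriched gene was BAP1, a nuclear deubiquitinase, at 46.3 and 199 TPM. Of 4 genes with the DJ-1 fold or in the glyoxalase route, GATD1 was enriched and GLO1 was depleted, with values of 11.2 and 36.0 TPM for GATD1 and 96.5 and 44.4 TPM for GLO1.

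**Figure D3:**
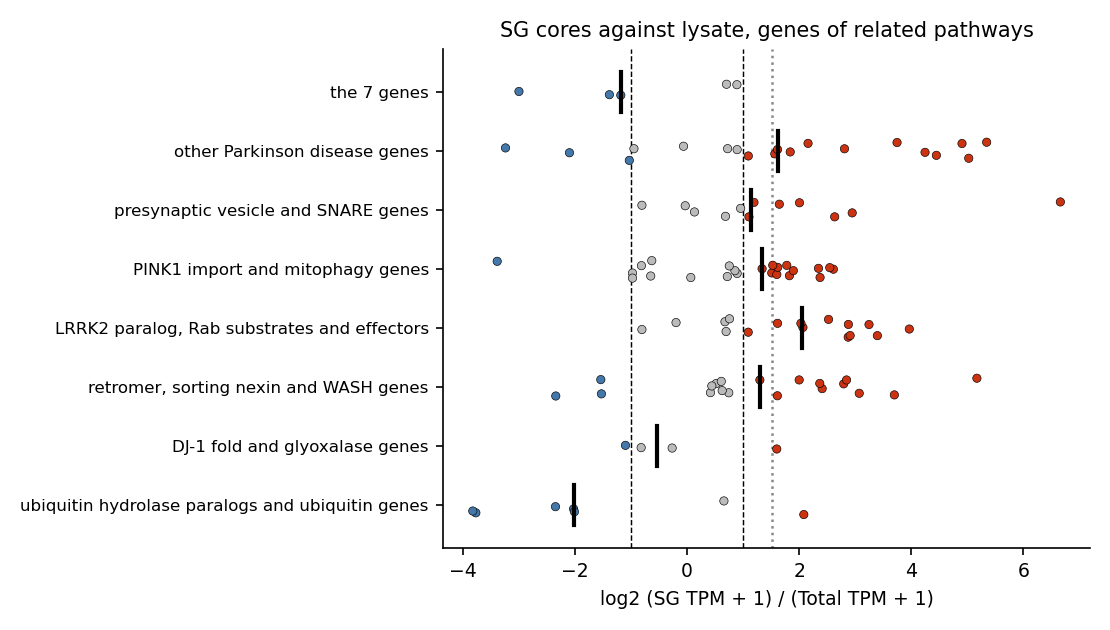
Log2 fold of TPM + 1 in SG over Total for the genes above 1 TPM in each list, with 1 point per gene in red (enriched), blue (depleted) or grey (neither), a black bar at the median of the list, dashed lines at the 2-fold rule and a dotted line at the median of all genes, 1.51. The list medians run from -2.03 (ubiquitin hydrolase paralogs and ubiquitin genes) to 2.05 (LRRK2 paralog, Rab substrates and effectors), and the 7 genes have a median of -1.18 over the 5 above 1 TPM.

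The knockdowns ask whether either G3BP sets the level of these mRNAs in cells without AS. None of the 7 passed a ratio of 2 in either knockdown. UCHL1 was at 988 TPM in siCtrl, 979 TPM in siG3BP1 and 1031 TPM in siG3BP2. PARK7 was at 199, 173 and 188 TPM, PINK1 at 28.6, 26.2 and 23.1 TPM, and VPS35 at 18.3, 18.8 and 17.2 TPM in the same order. Of these 4 genes, the ratio farthest from 1 was that of PINK1 in siG3BP2, 0.810. SNCB stood apart in siG3BP1, with 4.28 TPM in siCtrl, 2.45 TPM in siG3BP1 and 4.16 TPM in siG3BP2. Its ratio in siG3BP1 was 0.572, lower than in all but 5.29% of the 12280 genes above 1 TPM, and in siG3BP2 it was 0.972. Across those genes 2.53% were higher and 3.69% lower in siG3BP1 by the rule, and in siG3BP2 2.43% and 5.62% of 12229 genes. The 2 knockdowns share the siCtrl library. LRRK2 was at 0.0212 TPM in siG3BP1 and 0.0173 TPM in siG3BP2, and SNCG at 0.0640 TPM in siG3BP1 and listed at 0 in siG3BP2, all far below the 1 TPM that the rule asks for.

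Total and siCtrl differ in AS, in siRNA and in the way the RNA was taken, and these cannot be told apart. None of the 7 genes passed a ratio of 2, where 2.37% of 12173 genes were higher and 27.2% lower in Total. The median ratio of all genes was 0.750. PARK7 was 1.32 times its siCtrl level in Total, which is 1.75 times that median and higher than in 91.4% of genes. VPS35 was at 1.11, UCHL1 at 0.955 and PINK1 at 0.685 times the siCtrl level, so UCHL1, though lower, was above the median, at 1.27 times it. SNCB was at 0.502 times its siCtrl level, just inside the limit of 0.5 for a call. Of the 12 presynaptic genes, 9 were lower in Total by the rule, with CPLX2, a complexin that clamps SNARE complexes, at 41.1 TPM in siCtrl and 10.8 TPM in Total.

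The rRNA-depleted libraries ask what 1 h of AS does to total RNA, transcript by transcript. Most transcripts of the 7 genes shifted little, and by about as much as other transcripts. The values are RPKM, reads per kb of transcript scaled to the library's read total, and reads shared by several transcripts of a gene enter each of them, so the transcripts of a gene are not independent. The untreated library corresponds to 13291958 reads and the AS library to 11281587. Of the 67 transcripts, 34 were above 1 in either library and 32 of these had a ratio of AS to untreated above 1, with a median of 1.13. The median over the 88770 transcripts above 1 in both libraries was 1.19, and only 6 of the 34 were above it. The exact 95% interval of the ratio, which covers counting error only, held that median for 32 of the 34. By a ratio above 2 or below 0.5, 1 of the 34 (2.94%) was higher and 0 were lower, where 6.84% of 100705 transcripts were higher and 2.01% lower. Among the MANE transcripts alone, 1 representative mRNA per gene, 0 of the 4 of these genes above 1 passed, where 3.93% of 10332 were higher and 0.319% lower.

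The main mRNAs moved within narrow limits. UCHL1-201, the canonical mRNA, had 99.4 RPKM before AS and 113 RPKM after it, a ratio of 1.13 with an interval of 1.05 to 1.22. PARK7-201 was at 23.4 and 26.0, a ratio of 1.11 with an interval of 0.956 to 1.30, and the 10 PARK7 transcripts had ratios from 1.08 to 1.21. PINK1-201 was at 3.94 and 4.54, a ratio of 1.15 with an interval of 0.903 to 1.47. Relative to the median of 1.19, all 3 of these ratios turned lower.

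Among the minor forms above 1, the 2 transcripts with a lower value were both of UCHL1. UCHL1-208, which keeps an intron, was at 10.4 and 7.71, and the interval of its ratio of 0.738 ran from 0.502 to 1.08 and did not reach the median. UCHL1-212 was at 1.18 and 0.598, from 7 and 3 reads. SNCB had no transcript above 1 and at most 7 reads in either library. The 4 SNCG transcripts were at 0 in both. A change of these 2 genes was not detectable at this depth. LRRK2 had no transcript above 1 either, so none could be called, and its canonical mRNA had 15 reads before AS and 11 after it. Its 21 transcripts share reads and were at 0.268 RPKM or less in both libraries, so their directions are not separate observations. Of them, 19 had a lower value after AS, and 7 were at 0 there, 1 of them in both libraries. The share of all transcripts this low that had a lower value was not counted. For LRRK2-215, a form marked for nonsense-mediated decay, 10 reads before AS stood against 1 after it, and the interval of the ratio, from 0.00271 to 0.828, held neither 1 nor the median. For LRRK2-211, with 8 reads and 1, and LRRK2-213, with 6 and 0, the interval lay below the median. These intervals are not adjusted for the number of transcripts, and the transcripts share reads.

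**Figure D4:**
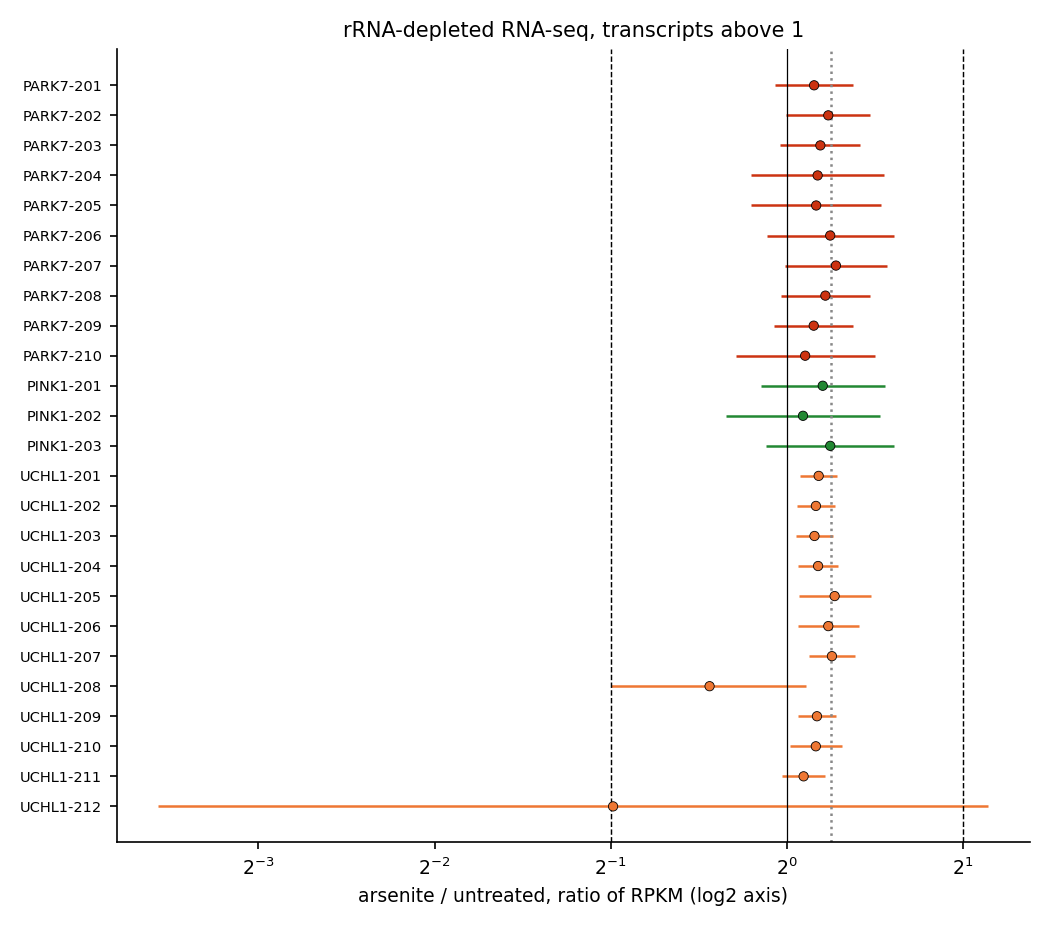
Ratio of AS to untreated in RPKM (log2 axis) for 25 of the 34 transcripts above 1 in either rRNA-depleted library, with exact 95% intervals that cover counting error only, coloured by gene. Dashed lines mark ratios of 0.5 and 2 and the dotted line the median of all transcripts, 1.19, which 23 of the 25 intervals hold.

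The eCLIP values, deposited under the heading peaks, give a signal of each gene with G3BP1 and with G3BP2. Each is log10 of a whole number plus 1, per gene and library and not scaled between libraries, and which of the processing steps it includes is not stated. All 7 genes had a value above 0 in at least 7 of the 8 libraries. Of the 19942 genes, only 936 to 2591 were at 0 in any 1 library, so this does not set the 7 apart. Libraries are given in the order untreated 1 and 2, then AS 1 and 2. LRRK2 had the highest values, 3.58, 3.10, 3.61 and 2.89 with G3BP1 and 3.70, 3.26, 3.68 and 3.24 with G3BP2, above 92.9% to 95.6% of genes in every library, although its mRNA was at 0.441 TPM or less. Its gene is also the longest of the 7, at 172542 bp, and overlaps LRRK2-DT and LINC02471. Across genes, Pearson's r of the eCLIP value with gene span, both as log10, was 0.819 to 0.827 in the 8 libraries. These points share a library, and genes are not independent replicates.

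Per kb of gene span, the genes were closer together. The median percentile over the 8 libraries was 86.2 for LRRK2, 79.0 for SNCB, 77.2 for PARK7, 71.6 for UCHL1, 70.9 for SNCG, 58.1 for VPS35 and 51.1 for PINK1. The spread over libraries was wide, from 11.3 to 91.3 for PARK7 and from 27.6 to 90.4 for SNCB, and narrow for LRRK2, from 82.5 to 90.3, so the middle of this order cannot be told apart. The length that is used moves it: per kb of merged exons the median percentile of VPS35 was 39.0 and that of PINK1 37.4, and per kb of the summed spans of all transcripts, an alternative chosen after seeing the data, LRRK2 was at 58.5 and PINK1 at 86.0. The most abundant mRNA of the 7, UCHL1, did not lead by its median on any of these scales. Its percentile per kb of gene span ran from 0 to 92.9 over the libraries. In AS library 2 of G3BP1 and AS library 1 of G3BP2 it was the highest of the 7, at 92.9 and 89.8.

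For the change after AS, limma compared 2 libraries with 2, over all genes that were above 0 in 2 or more of them. None of the 35 tests of these genes, 7 genes in 5 comparisons, passed, and the adjusted p was 1 in each by limma with Benjamini-Hochberg adjustment. Over all genes, 0 were called for G3BP1, where at an unadjusted p under 0.05 the shares were 0.0847% upward and 0.159% downward (no other tool was run), and 0.0105% of 19035 genes were called higher for G3BP2. These G3BP1 shares are far smaller than a threshold of 0.05 would give without any change. The values tested are not scaled between libraries, so the spread within a group includes the difference in library totals. The intervals are wide. For PARK7 with G3BP1 the difference on the log10 scale was -0.31 with a 95% interval from -1.50 to 0.88. For LRRK2 with G3BP2 it was -0.02 with an interval from -0.88 to 0.84. A change of several fold in either direction would not have been detected by this test.

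UCHL1 came nearest. With G3BP1 its values were 1.96 and 1.61 before AS and 2.44 and 1.91 after AS, and with G3BP2 they were 2.09 and 0.00 before AS and 2.56 and 2.08 after AS. As deposited, the groups overlap for both proteins, since untreated library 1 was above AS library 2 each time. A separation of the groups as deposited was seen upward in 0.852% of genes for G3BP1 and 1.51% for G3BP2, and in 0 of the 7. The difference was 0.39 ± 0.627 (SE, n = 2 against 2) for G3BP1, and for G3BP2 it was 1.28 ± 0.429 with a 95% interval from 0.435 to 2.11, an unadjusted p of 0.00293 and an adjusted p of 1 by limma. At an unadjusted p under 0.05, 0.368% of genes were above their untreated level for G3BP2 and 0.468% were below it. This value rests on the untreated library 2 of G3BP2, in which UCHL1 was listed at 0: without that library the difference was 0.23. The difference between the 2 proteins in their response was 0.89 with an interval from -0.475 to 2.24 and an adjusted p of 1 in limma's interaction test, in which 0 of 19259 genes were called and the shares at an unadjusted p under 0.05 were 0.114% upward and 0.135% downward.

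Divided by the total of its library, UCHL1 was higher after AS in every like-numbered pair of libraries. In parts per 1000000 of the library's total (ppm), it was at 3.76 and 5.85 before AS and 12.1 and 18.8 after AS with G3BP1, and at 4.66 and 0 before AS and 13.9 and 15.6 after AS with G3BP2. The groups no longer overlap for either protein on this scale. The same separation was seen upward in 13.3% of all genes for G3BP1 and 14.7% for G3BP2. On the scaled log10 values the difference was 0.503 for G3BP1, with an unadjusted p of 0.0146 and an adjusted p of 0.996 by limma, and for G3BP2 it was 1.43, with an unadjusted p of 0.0673 and an adjusted p of 0.994 by limma, so neither call changes. Over the 9 alternatives for each protein the adjusted p of UCHL1 ran from 0.786 to 1 with G3BP1 and from 0.444 to 1 with G3BP2. The level of UCHL1 mRNA in the rRNA-depleted libraries had a ratio of 1.13 between the same treatments.

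PARK7 split by library number. It was at 30.9 ppm in untreated and 4.17 ppm in AS library 1 of G3BP1, but at 14.9 and 44.4 ppm in the libraries numbered 2. With G3BP2 it was at 28.9 and 3.08 ppm in libraries 1 and at 22.9 and 28.4 ppm in libraries 2. Libraries 1 of both proteins thus show a low value after AS that libraries 2 do not, and the mean difference of the deposited values, -0.31 for G3BP1 and -0.51 for G3BP2, describes neither. As deposited, PARK7 and PINK1 were lower in both AS libraries of G3BP2 than in both untreated ones, a separation seen downward in 3.35% of genes for G3BP2 and 2.27% for G3BP1. It was gone once the libraries were scaled.

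**Figure D5:**
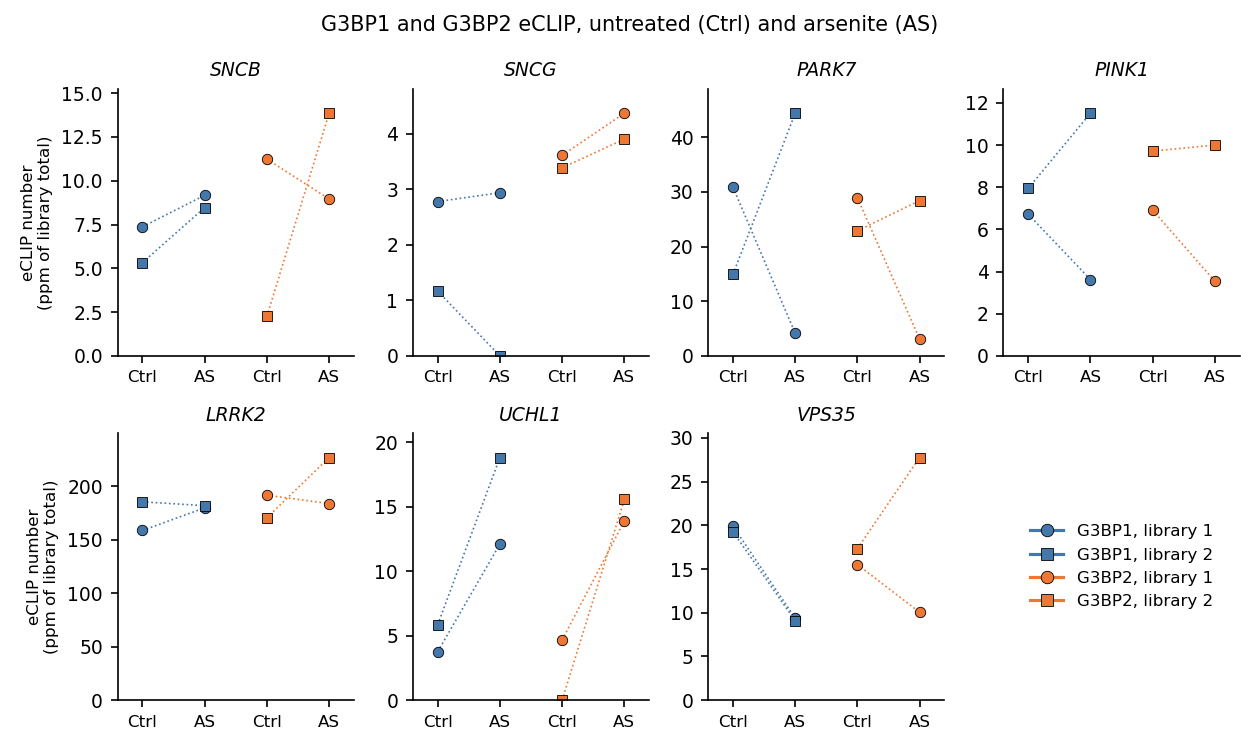
The eCLIP number in ppm of its library's total for each gene in untreated (Ctrl) and AS-treated (AS) cells, G3BP1 in blue and G3BP2 in orange, circles for libraries numbered 1 and squares for those numbered 2. Dotted lines join equal numbers, which the labels do not describe as paired. UCHL1 is higher after AS along all 4 lines, and PARK7 is lower along both lines of circles (30.9 to 4.17 and 28.9 to 3.08) and higher along both lines of squares.

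VPS35 values were 2.68, 2.12, 2.33 and 1.60 with G3BP1 and 2.61, 2.27, 2.42 and 2.33 with G3BP2. After scaling it was at 19.9 and 19.3 ppm before AS and 9.38 and 9.09 ppm after AS with G3BP1, 2 tight pairs that do not overlap, a separation seen downward in 14.5% of genes. With G3BP2 it was at 15.5 and 17.3 ppm before AS and 10.1 and 27.8 ppm after AS, which overlap, and such a separation was seen downward in 15.6% of genes. SNCB was at 7.37 and 5.32 ppm before AS and 9.17 and 8.47 ppm after AS with G3BP1, which do not overlap, a separation seen upward in 13.3% of genes, and at 11.2 and 2.26 against 8.95 and 13.9 with G3BP2. LRRK2 stayed between 158 and 227 ppm in all 8 libraries. SNCG values were at most 2.06 as deposited, and it was listed at 0 in AS library 2 of G3BP1. With G3BP2 it was at 3.61 and 3.39 ppm before AS and 4.37 and 3.90 ppm after AS, which do not overlap, as in the 14.7% of genes separated upward for that protein. PINK1 values ran from 1.70 to 2.26 as deposited. Scaled, PINK1 had the same split by library number as PARK7, at 6.72 ppm before AS and 3.62 after it in libraries 1 of G3BP1 but 7.95 and 11.5 in libraries 2, and at 6.91 and 3.54 ppm in libraries 1 of G3BP2 but 9.71 and 10.0 in libraries 2. None of these differences passed the test on either scale.

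G3BP2 and G3BP1 were also compared directly. In untreated cells the difference of G3BP2 over G3BP1 on the log10 scale ran from -0.74 for UCHL1, which again rests on the value listed at 0, to 0.39 for SNCG. In AS-treated cells it ran from -0.005 for PARK7 to 0.86 for SNCG, where the value of SNCG with G3BP1 that is listed at 0 enters. The adjusted p was 1 for all 7 genes in both comparisons by limma, and for SNCG in AS-treated cells the 95% interval ran from -0.287 to 2.01. Over all genes, 0 were called in either comparison, and at an unadjusted p under 0.05 by limma the shares were 0.442% upward and 0.0895% downward without AS, and 0.106% and 0.0106% with it.

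PINK1, whose canonical transcript holds the match shown above, had the lowest median percentile of the 7 per kb of gene span, at 51.1. Per kb of the summed spans of all transcripts, the alternative chosen after seeing the data, it had the highest, at 86.0. PINK1 was not depleted in SG. The eCLIP values are per gene, so they cannot bear on a single match. Among all genes a motif match was found in 7.04% of canonical transcripts of 500 to 1500 nt, 20.1% of those of 1500 to 3000 nt and 40.6% of those of 3000 to 10000 nt, so the share with a match was larger for longer transcripts.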

How the data were processed

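The members and the gene lists were chosen with earlier results of these data known. For eCLIP, the authors used fastp, STAR, CLIPper and size-matched input, and deposited log10 values per gene. TPM of the knockdown, Total and SG libraries were made by the authors with HISAT2 2.1.0 and StringTie. The deposited rRNA-depleted table is headed TPM, but its columns sum to 1039719 and 1216810, and its values are whole reads as RPKM, within 0.02 reads for 97.3% and 97.2% of transcripts above 0.

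Of the 19942 rows, 19910 were found in GENCODE release 44 on GRCh38 by ID (the authors used another release), and 91.1% of the transcripts. The 36 rows of repeated IDs were kept.

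eCLIP values were tested with limma 3.58.1 (R 4.3.3), its variance prior following the mean value, and p-values were adjusted by Benjamini-Hochberg, with a threshold of 0.05. RNA-seq had 1 library per condition, so a fold of TPM + 1 (SG) or a plain ratio was used, with thresholds of 2 and 0.5 and a minimum of 1, and no test. Intervals of read ratios are exact (Clopper-Pearson, 95%) and cover counting error only. The scripts were tested on simulated data. Python 3.11.15, pandas 2.3.3, scipy 1.17.1 and matplotlib 3.10.9 were used.

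The text names the 7 genes in every comparison. Of each list, it may name the genes with the highest and lowest fold among those above 10 TPM. SMInput libraries and peak positions were not analysed here. Some single transcripts and 1 motif match are not reported here.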

Additional observations from a re-analysis of the deposited data

How the results depend on the processing

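No member's eCLIP value passed an adjusted p of 0.05 under any of the 371 alternative values computed, and the lowest adjusted p was 0.444 (limma, no intensity trend, UCHL1 with G3BP2). Of those values, 59 lay in the opposite direction. With libraries scaled to the same total, alone or with the replicate block, the log10 difference was 0.0228 (G3BP1) and 0.0529 (G3BP2) for LRRK2 and 0.00798 (G3BP2) for VPS35 after AS. For G3BP2 against G3BP1 it was -0.0920 for SNCB and -0.0766 for VPS35 in untreated cells, and -0.0352 for PINK1 and -0.0113 for UCHL1 in AS-treated cells. Leaving out 1 library at a time gave these ranges where the sign changed. For AS against untreated with G3BP1, SNCB -0.34 to 0.41, SNCG -1.39 to 0.44, PARK7 -0.74 to 0.12, PINK1 -0.40 to 0.07 and LRRK2 -0.45 to 0.27. For AS against untreated with G3BP2, SNCB -0.27 to 0.80, LRRK2 -0.24 to 0.20 and VPS35 -0.24 to 0.10. For the interaction, SNCB -0.30 to 0.77, SNCG -0.44 to 1.39, PARK7 -0.63 to 0.23, PINK1 -0.28 to 0.19, LRRK2 -0.29 to 0.43 and UCHL1 -0.16 to 1.93. For G3BP2 against G3BP1 in untreated cells, SNCB -0.51 to 0.56, SNCG -0.055 to 0.82, PARK7 -0.23 to 0.62, PINK1 -0.07 to 0.40, LRRK2 -0.10 to 0.38, UCHL1 -1.78 to 0.30 and VPS35 -0.24 to 0.32. For G3BP2 against G3BP1 in AS-treated cells, SNCB -0.12 to 0.63, SNCG -0.055 to 1.77, PARK7 -0.22 to 0.21, LRRK2 -0.15 to 0.57 and UCHL1 -0.12 to 0.41. Over all genes, leaving out 1 library gave 0 to 1 higher and 0 to 12 lower for G3BP2 after AS, 0 to 1 lower for the interaction and 0 to 41 higher for G3BP2 against G3BP1 in untreated cells. Without the intensity trend, G3BP2 after AS had 5 genes higher and 6 lower.

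The labels do not say whether equal library numbers mark a pairing. The correlation of their deviations from the group means ran from 0.0626 to 0.452, and the libraries were not treated as paired. With the replicate block, or scaled libraries with or without it, 0 genes were higher for G3BP2 after AS in place of 2, and no other call of these genes changed.

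The depletions of PARK7 and UCHL1 in SG stayed under every alternative, that of SNCB was lost with a minimum of 10 TPM, and a fold of 1.5 added 2 enriched members. With the median ratio set to 1, 4505 genes were enriched and 3271 depleted in SG. The knockdown and Total counts over all genes, higher then lower, depend on the thresholds. For siG3BP1 they were 138 and 243 with a pseudocount of 1 TPM, 1351 and 1409 with no minimum, 45 and 98 with a minimum of 10 TPM and 684 and 1088 at a fold of 1.5. For siG3BP2 they were 150 and 353, 1192 and 1805, 61 and 149, and 604 and 1648. For Total against siCtrl, 156 were higher with the pseudocount, 1261 were higher with no minimum, and the pairs were 100 and 1478 with a minimum of 10 TPM, 640 and 1951 with the median ratio set to 1 and 641 and 5427 at a fold of 1.5. Members entered only with no minimum, which called 1 higher in siG3BP1, 1 higher and 1 lower each in siG3BP2 and Total (LRRK2 and SNCG, below 1 TPM), and at a fold of 1.5, which called 1 lower in siG3BP1 and 1 lower in Total (SNCB).

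For the rRNA-depleted transcripts, higher then lower, the counts were 26661 and 14211 with no minimum, 268 and 40 with a minimum of 10, 3808 and 3392 with the median ratio set to 1, 1517 and 473 with a pseudocount of 1 and 20732 and 4421 at a fold of 1.5. Member transcripts were 3 and 12 with no minimum and 2 and 1 at a fold of 1.5. None was higher (0) with a minimum of 10 or a pseudocount of 1, and 1 was lower with the median ratio set to 1. The median percentile of the eCLIP value per kb moved to 39.0 with merged exons for VPS35, and with the summed span of all transcripts, chosen after seeing the data, to 86.0 for PINK1, 58.5 for LRRK2, 24.9 for UCHL1 and 35.4 for VPS35.

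The eCLIP totals, lowest at 4268657, and 1 library per RNA-seq condition limit these comparisons.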

Other observations

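VPS35L, the VPS35-like subunit of the retriever complex, was the gene with the highest fold among the retromer, sorting nexin and WASH genes in both knockdowns. It was at 4.87 TPM in siCtrl, 20.2 TPM in siG3BP1 and 18.3 TPM in siG3BP2. VPS35 itself was at 18.3, 18.8 and 17.2 TPM in these libraries. VPS35L was at 3.50 TPM in Total and 30.2 TPM in SG. UCHL3, the closest paralog of UCHL1, was at 11.3 TPM in siCtrl, 11.0 TPM in siG3BP1 and 21.4 TPM in siG3BP2, and at 23.8 TPM in Total and 3.86 TPM in SG. Both knockdowns and Total are set against the same siCtrl library, and each condition has 1 library.

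For each gene, the 2 genes with the most similar profile over the 5 TPM libraries were sought among the 10757 genes that exceed 10 TPM in any of them, by the Euclidean distance between centred log2(TPM + 1) values. Those of UCHL1 were UQCRC2, a core subunit of respiratory complex III, at 0.0392, and ETFB, a subunit of the electron transfer flavoprotein, at 0.0418. Those of PARK7 were MORN2 at 0.122 and RPL15, a ribosomal protein, at 0.152. Those of PINK1 were BTG3 at 0.0562 and ZFTRAF1 at 0.0666, those of VPS35 were REPS1 at 0.0705 and BRAP at 0.0805, and those of SNCB were SERP2 at 0.205 and ANXA2 at 0.225. SNCG and LRRK2 were below 1 TPM in all 5 libraries, so their profiles carry little shape. The nearest genes were DNAJC17 at 0.0686 and P3H1 at 0.0771 for SNCG, and EFHD2 at 0.0549 and NARS1 at 0.0562 for LRRK2. These distances describe 5 libraries and carry no test.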
